A study of Mus musculus with 8 samples.

Results

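Cytochrome P450 genes were followed in RNA of mouse kidneys whose blood supply had been stopped and then restored, that is, after ischemia-reperfusion injury. Members were all symbols made of Cyp and a number in the deposited table of counts per gene, apart from Cyp51, Cyp27b1, Cyp24a1 and pseudogenes, with a total of at least 80 counts over the 8 libraries. Of 105 such symbols 43 were members, among 25239 genes in the table. A further 36 symbols had a lower total, 19 had a total of 0, 4 were pseudogenes and 3 were the named exceptions. The members nearest the limit were Cyp2t4 (91 counts), Cyp2b9 (112) and Cyp4f15 (133), and just outside it lay Cyp2c69 (74 counts), Cyp17a1 (55) and Cyp3a11 (47). No gene of steroid hormone synthesis (Cyp11a1, Cyp11b1, Cyp11b2, Cyp17a1, Cyp19a1, Cyp21a1) reached the limit.

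The comparison has 4 control libraries with the genotype label WT and 4 libraries labelled as myeloid-specific FoxO1 knockouts, numbered 1 to 4 in each group. The labels' protocols describe the knockout mice as Lyz2-CreERT2 FoxO1flox/flox, so a tamoxifen-dependent Cre driven by Lyz2, a gene of myeloid cells, removes floxed FoxO1. Mice of 8 to 10 weeks were injected with tamoxifen (75 mg per kg) on 5 days. The entries of all 8 libraries list this injection and the same surgery, with the right kidney removed and the left renal vessels clamped for 35 minutes, and collagenase digestion of the tissue before RNA extraction. Whether the controls carried Cre or received tamoxifen, and the time from reperfusion to collection, were not stated in the labels. Separate animals are not named for the libraries in any label. The p-values therefore refer to the spread among these libraries, part of which may be technical.

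Cytochrome P450 enzymes hold a heme group and use it to insert oxygen into fats, steroids, vitamins and foreign compounds. Those of the endoplasmic reticulum take electrons from the reductase Por, and those of mitochondria from the ferredoxin Fdx1. In the kidney they are found mainly in the proximal tubule, where Cyp4a enzymes hydroxylate the end of fatty acids such as arachidonic acid and Cyp2c and Cyp2j enzymes make arachidonic acid epoxides, both of which act on vessel tone and salt transport. Several mouse kidney P450 genes, Cyp4a12a and Cyp7b1 among them, are known to be higher in males.

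Every active P450 carries a cysteine that binds the heme iron within a short conserved stretch. The 30 coding bases of that stretch are shown for the members that changed, because they show how near to each other the affected enzymes are there. They do not show which of these genes could exchange reads, as they are only a small part of each transcript. They were read from the GENCODE M21 transcripts of the build GRCm38, 5′ to 3′ on the coding strand, and the capitals mark the cysteine codon.
Cyp4a12a: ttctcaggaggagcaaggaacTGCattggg
Cyp4a12b: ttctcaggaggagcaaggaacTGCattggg
Cyp4b1: ttttctgcagggcccaggaatTGCattggg
Cyp2j13: ttttcaatgggaaagcgagctTGCctcgga
Cyp2j11: ttctcaatgggaaagagagctTGCcctggg
Cyp2d9: ttctcagcaggccgcagatcaTGCctgggg
Cyp2d12: ttttcagcaggccgcagatcaTGCctgggg
Cyp2d26: ttctcagcaggccgcagatcaTGCctgggg
Cyp3a13: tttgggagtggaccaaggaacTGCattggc
Cyp27a1: ttcggctatggggttcggtctTGCctgggt
The pattern was found in 38 of the 43 members and in 10 of the 11 that changed, with Cyp7b1 the exception. Cyp4a12a and Cyp4a12b were identical over all 30 bases, as were Cyp2d9 and Cyp2d26, whose stretch also occurs in the uncalled Cyp2d22. In contrast, Cyp2j11 and Cyp2j13 shared 25 and Cyp4a12a and Cyp4b1 shared 23.

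Library totals ran from 29044405 to 35530421 counts, and between 16873 and 17285 genes were detected per library. Foxo1, the targeted gene, stood at 33.0 to 34.4 CPM (counts scaled to library size) in controls and 39.3 to 42.9 CPM in knockouts, a log2FC (log2 fold change of knockout over control) of 0.29 ± 0.09 SE, which missed the threshold (adjusted p = 0.0647 by edgeR). Counts over the whole gene in whole kidney do not check a deletion in myeloid cells. The macrophage and neutrophil gene Lyz2, whose promoter drives the Cre, stood at 2.28 CPM in control 1 and 0.37 CPM in knockout 3, against 25.4 to 50.4 CPM in the other libraries. Neutrophil markers summed to 177 CPM in control 1 (27.7 to 51.4 in other controls) and 6.20 CPM in knockout 3 (8.03 to 16.8 in other knockouts). Macrophage markers, Lyz2 among them, summed to 296 CPM in control 1 (187 to 325 in other controls) and 214 CPM in knockout 3 (262 to 360 in other knockouts). With control 1 and knockout 3 left out, 6 P450 members rose and 4 fell. Of all 15029 genes tested in that fit 549 rose and 496 fell, against 967 and 942 of 15000 with all libraries. Of the Y-linked genes Ddx3y, Uty, Kdm5d and Eif2s3y, each was detected in all 8 libraries, and Xist did not exceed 0.23 CPM in any. Liver and adrenal also express P450 genes, and their markers were summed. The 12 hepatocyte genes reached 349 to 535 CPM in controls and 412 to 614 CPM in knockouts. Of the 10 tested, 8 had a positive and 2 a negative log2FC, with a median of 0.87. Serpina1a rose, from 3.99 to 60.0 CPM in controls to 83.6 to 238 CPM in knockouts, and Fgb fell, from 97.8 to 344 CPM to 21.3 to 54.1 CPM. Alb stood at 6.66 to 19.9 CPM over all libraries, and Tat and Cps1 were near 0 (at most 0.58 and 0.56 CPM). The 8 adrenal genes summed to 35.3 to 45.2 CPM in controls and 30.6 to 40.1 CPM in knockouts, with 0 of 4 tested risen or fallen and Hsd3b1 at 0.09 CPM at most. Their part in the results on P450 genes was not tested.

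Of the 42 members tested, 6 rose and 5 fell in the knockout and 31 did not pass (edgeR's quasi-likelihood test, adjusted p under 0.05 over all 15000 genes tested). Cyp2t4 was too low to be tested. The 11 called members are 26.2% of those tested, where 12.7% of all genes were called, 6.45% in the higher and 6.28% in the lower direction. The members that rose were Cyp2d9, Cyp2d12 and Cyp2d26 of the Cyp2d family, Cyp2j11, and the sterol hydroxylases Cyp7b1 and Cyp27a1. Those that fell were Cyp4a12a, Cyp4a12b, Cyp4b1, Cyp2j13 and Cyp3a13. The median log2FC was 0.34 over the members and -0.01 over all genes tested. A positive value was found in 27 members and a negative one in 15, against 7327 and 7673 of all genes tested. The 2 groups did not overlap in 15 of 42 members (35.7%), where 21.7% of all genes did not overlap.

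**Figure D1:**
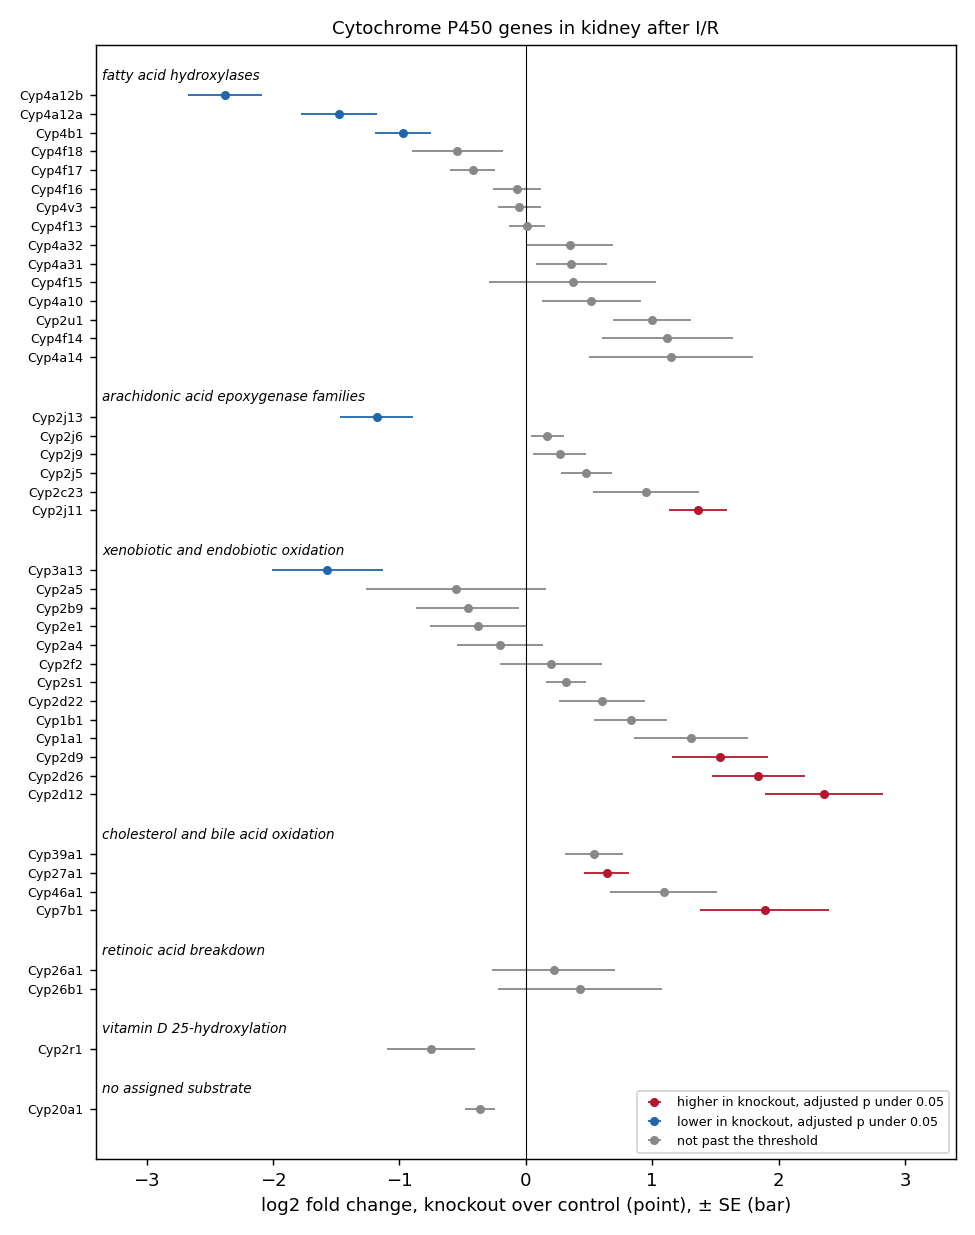
Log2 fold change of knockout over control (x axis, points) with its standard error (bars) for the 42 tested P450 genes, grouped by role. The 3 members lowest among the fatty acid hydroxylases are Cyp4a12b, Cyp4a12a and Cyp4b1, while all 4 genes of cholesterol and bile acid oxidation lie above 0, with 2 of them past the threshold.

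The fatty acid hydroxylases were the largest group, with 15 members, of which 0 rose and 3 fell (median log2FC 0.01). Cyp4a12b, a Cyp4a hydroxylase of the mouse kidney, stood at 59.1, 88.0, 102.6 and 73.9 CPM in the controls, in order, and at 14.7, 17.7, 21.9 and 7.85 CPM in the knockouts. Every knockout library lay below every control, with knockout 4 the lowest. The means were 80.9 ± 18.7 and 15.5 ± 5.93 CPM (SD, n = 4 each), 5.20-fold lower (log2FC of -2.38 ± 0.29 SE, adjusted p = 0.00158 by edgeR). Its near copy Cyp4a12a, known to form the vasoconstrictor 20-HETE from arachidonic acid, stood at 101.7, 96.0, 56.3 and 100.2 CPM in controls and 50.6, 24.9, 32.9 and 18.8 CPM in knockouts. The groups did not overlap, although control 3 came close to knockout 1. The gene was 2.79-fold lower (log2FC of -1.48 ± 0.30 SE, adjusted p = 0.0119 by edgeR). Of the 50-base words of the Cyp4a12a transcript 48.9% also occur in Cyp4a12b, so the split of reads between them is uncertain. Summed, the pair stood at 161, 184, 159 and 174 CPM in controls and 65.3, 42.6, 54.8 and 26.6 CPM in knockouts, again without overlap. In controls the sum varied less (169 ± 11.9 CPM) than either gene alone. In knockouts its SD was the larger, at 47.3 ± 16.6 CPM against 31.8 ± 13.8 for Cyp4a12a and 15.5 ± 5.93 for Cyp4a12b.

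Cyp4b1, which hydroxylates short fatty acids and activates some foreign compounds, had the highest level per length of all members in controls and in the mean over the 8 libraries, though not in knockouts. It stood at 1006, 1246, 762 and 1347 CPM in controls and 558, 673, 615 and 376 CPM in knockouts. All knockouts lay below the lowest control, control 3. The means of 1090 ± 262 and 556 ± 129 CPM (SD, n = 4 each) give a 1.96-fold lower level (log2FC of -0.97 ± 0.22 SE, adjusted p = 0.0208 by edgeR). The call was lost without knockout 4 (adjusted p = 0.0538).

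The other Cyp4a genes did not pass. Cyp4a14, a target of the lipid-sensing receptor PPARA, had 67.6, 548, 732 and 275 CPM in controls and 756, 1846, 608 and 383 CPM in knockouts. It spanned the widest range of the highly expressed members, with control 1 lowest, knockout 2 highest, and the groups overlapping (log2FC of 1.15 ± 0.65 SE, adjusted p = 0.276 by edgeR). Without knockout 2 the log2FC was 0.53. Cyp4a10, also a PPARA target, had 167, 649, 644 and 608 CPM in controls and 683, 1114, 673 and 492 CPM in knockouts. Control 1 lay far below the other controls, and the remaining libraries overlapped (log2FC of 0.52 ± 0.39 SE, adjusted p = 0.417 by edgeR). Cyp4a31 and Cyp4a32, close relatives of Cyp4a10, had log2FCs of 0.36 and 0.35. Within 1 gene family, then, the Cyp4a12 pair was lower in the knockout while Cyp4a10, Cyp4a14, Cyp4a31 and Cyp4a32 had positive values that did not pass; the difference between them was not tested.

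Cyp2u1, which hydroxylates long-chain fatty acids, stood at 2.61, 3.32, 2.89 and 2.36 CPM in controls and 2.91, 6.86, 4.77 and 7.85 CPM in knockouts. Knockout 1 lay within the control range, and the difference did not pass (log2FC of 1.00 ± 0.31 SE, adjusted p = 0.0586 by edgeR), although it passed without knockout 1 (adjusted p = 0.0181). Cyp4f14, a leukotriene hydroxylase, had 0.28, 0.78, 0.56 and 0.84 CPM in controls and 2.41, 1.16, 1.30 and 0.50 CPM in knockouts (log2FC of 1.12 ± 0.52 SE, adjusted p = 0.187 by edgeR). Knockout 4 lay within the control range, and the other knockouts lay above it. The remaining Cyp4f members and Cyp4v3 had log2FCs from -0.54 (Cyp4f18) to 0.37 (Cyp4f15), and none passed. Cyp4f13 (0.01, SE 0.14) and Cyp4v3 (-0.05, SE 0.17) had the values nearest 0.

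In the Cyp2c and Cyp2j families, whose enzymes make arachidonic acid epoxides, 1 of 6 members rose and 1 fell, and both are Cyp2j genes. Cyp2j11 stood at 19.0, 36.4, 34.2 and 39.0 CPM in controls and 79.6, 102.9, 83.4 and 63.1 CPM in knockouts. The lowest knockout was above the highest control. The mean went from 32.1 ± 8.99 to 82.2 ± 16.4 CPM (SD, n = 4 each), 2.56-fold higher (log2FC of 1.36 ± 0.23 SE, adjusted p = 0.00555 by edgeR). Cyp2j13 moved the opposite way, from 79.3, 92.2, 67.0 and 99.2 CPM in controls to 25.1, 35.8, 63.5 and 24.7 CPM in knockouts. Knockout 3 stood close to control 3, and the other knockouts were well below. The gene was 2.26-fold lower (log2FC of -1.18 ± 0.29 SE, adjusted p = 0.0257 by edgeR), a call that was lost in 4 of 8 fits without 1 library (without any of control 4 and knockouts 1, 2 and 4, with adjusted p up to 0.0749). Without knockout 3 its log2FC was -1.56.

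The other 4 members of these families did not pass. Cyp2j5, the most abundant Cyp2j gene, had a log2FC of 0.48 ± 0.20 SE (adjusted p = 0.134 by edgeR). Cyp2c23, a main arachidonic acid epoxygenase of the mouse kidney, had 0.95 (SE 0.42, adjusted p = 0.162). Its highest library was knockout 2 (62.3 CPM) and its lowest control 1 (7.08 CPM). Cyp2j6 and Cyp2j9 had log2FCs of 0.17 and 0.27.

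Cyp2j13 and Cyp2j11 follow each other in the order of the members on chromosome 4, where genes that are not members were left out, and share few exact words (0.139% of those of Cyp2j13 and 1.34% of those of Cyp2j11 occur in any other gene), so read exchange between them is limited. The 250 bases before their start sites are shown since the genes belong to 1 family and changed in opposite directions. They come from RefSeq on GRCm38.p6, not on the build mm39 of the counts, and both lie on the minus strand. Capitals mark the AHR core motif GCGTG.
Cyp2j13 (chr4:96077548-96077797): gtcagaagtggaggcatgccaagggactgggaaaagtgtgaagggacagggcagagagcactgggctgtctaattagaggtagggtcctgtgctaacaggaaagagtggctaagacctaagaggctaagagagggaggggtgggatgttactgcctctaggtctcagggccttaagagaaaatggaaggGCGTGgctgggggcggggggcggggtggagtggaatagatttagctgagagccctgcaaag
Cyp2j11 (chr4:96348681-96348930): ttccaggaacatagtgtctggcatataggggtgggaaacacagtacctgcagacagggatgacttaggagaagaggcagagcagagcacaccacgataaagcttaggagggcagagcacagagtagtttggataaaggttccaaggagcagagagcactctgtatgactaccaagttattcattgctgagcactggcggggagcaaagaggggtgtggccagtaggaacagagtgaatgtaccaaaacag
The table has 2 windows for Cyp2j13, with starts 7 bases apart, and 1 is shown. It held GCGTG once, 61 bases before the start, and the Cyp2j11 window held none of the 6 motifs searched.

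**Figure D2:**
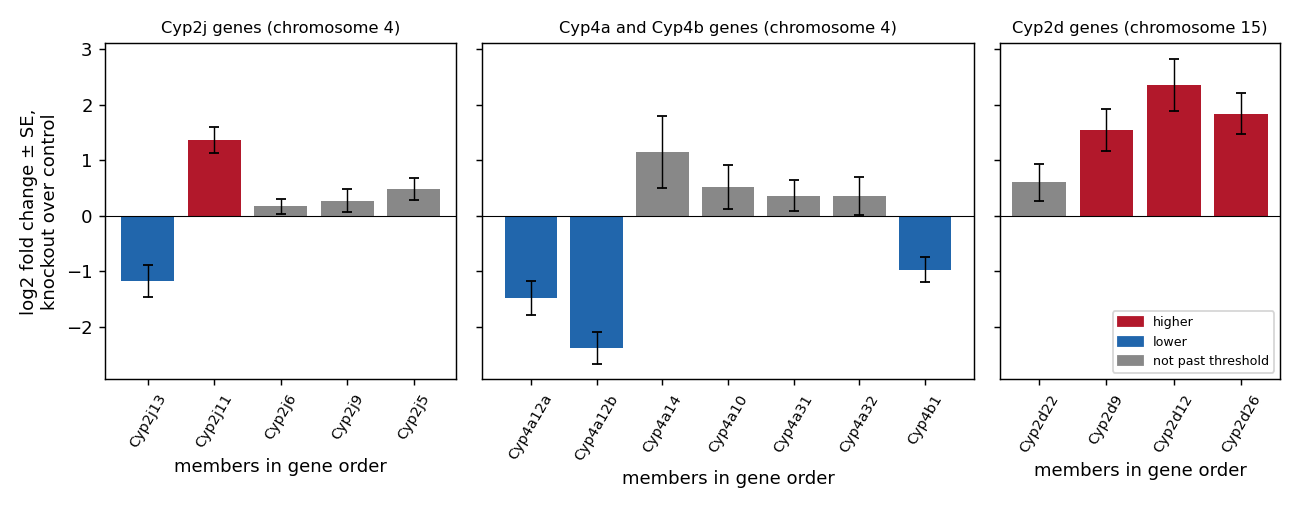
Log2 fold change (bars) with standard error for the members of the Cyp2j, Cyp4a and Cyp4b, and Cyp2d genes in their order along chromosomes 4 and 15. Cyp2j13 (-1.18) and Cyp2j11 (1.36) follow each other among the members plotted, with opposite signs, and 3 of the 4 Cyp2d members are past the threshold in the higher direction.

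In the group that oxidises foreign compounds, steroids and other small molecules, 3 of 13 tested members rose and 1 fell (median log2FC 0.32). The 3 that rose are Cyp2d genes on chromosome 15, where they follow each other in the order of the members, with other Cyp2d genes left out. Cyp2d12 stood at 5.51, 10.5, 8.62 and 6.83 CPM in controls and 38.6, 83.3, 15.4 and 24.7 CPM in knockouts. All knockouts exceeded all controls, but they differed widely among themselves, with knockout 2 highest and knockout 3 lowest. The mean went from 7.87 ± 2.19 to 40.5 ± 30.1 CPM (SD, n = 4 each; log2FC of 2.36 ± 0.47 SE, adjusted p = 0.0110 by edgeR). Without knockout 2 the log2FC was 1.74.

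Cyp2d26 stood at 10.6, 36.4, 22.9 and 33.5 CPM in controls and 51.8, 110.6, 93.4 and 114.0 CPM in knockouts, without overlap and with control 1 lowest. It was 3.58-fold higher (log2FC of 1.84 ± 0.37 SE, adjusted p = 0.0116 by edgeR). Cyp2d9, a testosterone hydroxylase known from male mouse liver, had 17.7, 57.6, 29.8 and 64.2 CPM in controls and 137, 157, 123 and 76.0 CPM in knockouts. The groups did not overlap, with knockout 4 closest to the controls. It was 2.91-fold higher (log2FC of 1.54 ± 0.38 SE, adjusted p = 0.0261 by edgeR), and lost its call on removal of control 3 or of knockouts 1, 2 or 3 (adjusted p up to 0.0742). The fourth Cyp2d member, Cyp2d22, had a log2FC of 0.60 (SE 0.34) that did not pass (adjusted p = 0.270). Read sharing leaves the split within the family uncertain, as 29% of the words of Cyp2d9, 10.5% of those of Cyp2d26 and 7.11% of those of Cyp2d12 occur in another gene. The Cyp2d12 share is over the 3813 words of its longest transcript, while its deposited length is 1633 bases. It may therefore be too low for the sequence counted. Cyp2d9 and Cyp2d12 summed stood at 23.2 to 71.0 CPM in controls and 101 to 240 CPM in knockouts. Only 10.7% of the words of Cyp2d9 occur in Cyp2d12, so this sum leaves its sharing with other genes uncovered.

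The windows before the Cyp2d9 and Cyp2d26 starts are shown as those of 2 members of 1 family that both rose, from RefSeq on GRCm38.p6, plus strand for Cyp2d9 and minus strand for Cyp2d26. Capitals mark the motifs found on either strand.
Cyp2d9 (chr15:82452127-82452376): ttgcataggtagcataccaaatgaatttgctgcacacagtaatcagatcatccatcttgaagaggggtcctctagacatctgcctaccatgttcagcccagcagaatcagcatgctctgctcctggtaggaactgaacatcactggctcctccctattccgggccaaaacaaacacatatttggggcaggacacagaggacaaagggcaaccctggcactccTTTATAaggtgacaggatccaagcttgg
Cyp2d26 (chr15:82794246-82794495): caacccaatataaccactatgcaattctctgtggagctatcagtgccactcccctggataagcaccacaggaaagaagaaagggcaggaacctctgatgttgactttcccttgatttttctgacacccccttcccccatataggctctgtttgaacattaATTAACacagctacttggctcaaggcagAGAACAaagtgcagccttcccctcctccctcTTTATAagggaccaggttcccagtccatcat
Both hold TATAAA, read on the opposite strand, starting 28 and 31 bases before the start, and Cyp2d26 also holds the steroid receptor half-site AGAACA and, on the opposite strand, GTTAAT, a half-site of the tubule factor HNF1. Of 32851 windows of this length in the whole set, 12.4% held TATAAA, 16.1% AGAACA, 6.43% GTTAAT, 28.2% GCGTG, 14% the nuclear receptor half-site AGGTCA and 3.17% the FoxO core GTAAACA, on either strand. Among the 35 windows of the 31 members found in the table the shares were 25.7%, 11.4%, 14.3%, 28.6%, 11.4% and 2.86%. None of the 7 members that changed and had a window held GTAAACA or AGGTCA in it. A match describes letters and not a bound site, and no motif overlapped another in the windows shown.

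Cyp3a13, a Cyp3a enzyme that oxidises foreign compounds, fell from a low level. It stood at 5.96, 1.41, 4.21 and 2.04 CPM in controls and 1.15, 0.93, 1.21 and 1.30 CPM in knockouts. Control 2 came close to the knockouts, and controls 1 and 3 were well above. The gene was 2.96-fold lower (log2FC of -1.57 ± 0.44 SE, adjusted p = 0.0433 by edgeR). The call was lost in 6 of 8 fits without 1 library (all but those without control 2 or control 4, adjusted p up to 0.113), and with control 1 and knockout 3 both left out (0.165).

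Cyp1a1 and Cyp1b1, both targets of the aryl hydrocarbon receptor AHR, did not pass. Cyp1a1 had 0.39, 1.25, 0.45 and 1.04 CPM in controls and 2.73, 2.03, 1.75 and 1.24 CPM in knockouts, from 14 to 76 counts a library. Knockout 4 lay within the control range (log2FC of 1.31 ± 0.45 SE, adjusted p = 0.0822 by edgeR). Cyp1b1 had a log2FC of 0.83 ± 0.29 SE (adjusted p = 0.0875 by edgeR). In DESeq2 15 members passed (35.7%, where 20.7% of all genes did): the 11 above, and Cyp1a1 (adjusted p = 0.0277), Cyp1b1 (0.0337), Cyp2u1 (0.0118) and Cyp20a1 (0.0423). With the replicate number as a block in edgeR, 5 members passed (11.9%, where 5.77% of all genes did), although the libraries showed no pairing by this number.

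Cyp2a4, Cyp2a5 and Cyp2e1 were among the 6 members with the highest level per length and did not pass. Cyp2a5, which oxidises coumarin and nicotine, had 144, 460, 261 and 701 CPM in controls and 147, 268, 619 and 37.5 CPM in knockouts. It varied more within the knockouts than any other member (CV, the SD as a percent of the mean, 94.2%), and the groups overlapped over nearly their whole range (log2FC of -0.55 ± 0.71 SE, adjusted p = 0.653 by edgeR). Cyp2a4, a testosterone hydroxylase, had 160, 489, 304 and 540 CPM in controls and 407, 380, 270 and 242 CPM in knockouts, all within the control range (log2FC of -0.20 ± 0.34 SE, adjusted p = 0.736 by edgeR). Since 38% of the words of Cyp2a4 and 40.8% of those of Cyp2a5 occur elsewhere, mainly in each other, their split is uncertain. The 2 genes summed spanned 305 to 1241 CPM in controls and 279 to 889 CPM in knockouts. Cyp2e1, which oxidises ethanol, had 360, 383, 209 and 508 CPM in controls and 202, 496, 290 and 131 CPM in knockouts. Its knockouts reached from near the highest to below the lowest control (log2FC of -0.38 ± 0.38 SE, adjusted p = 0.549 by edgeR).

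All 4 members of cholesterol and bile acid oxidation had positive values, and 2 of them rose. Cyp7b1, which hydroxylates oxysterols and neurosteroids, stood at 5.14, 49.6, 29.6 and 33.0 CPM in controls and 144, 75.6, 117 and 98.9 CPM in knockouts. Every knockout exceeded every control, and control 1 was far below the rest. The mean went from 29.4 ± 18.4 to 109 ± 29 CPM (SD, n = 4 each), 3.71-fold higher (log2FC of 1.89 ± 0.51 SE, adjusted p = 0.0375 by edgeR). The call was kept without control 1 (log2FC 1.54) or control 2 and lost in the other 6 fits without 1 library (adjusted p up to 0.0899).

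Cyp27a1, the mitochondrial sterol hydroxylase, stood at 12.0, 18.8, 15.6 and 20.3 CPM in controls and 26.6, 29.1, 20.8 and 27.3 CPM in knockouts. Knockout 3 lay just above control 4. It was 1.56-fold higher (log2FC of 0.64 ± 0.18 SE, adjusted p = 0.0447 by edgeR), and lost its call in 5 of 8 fits without 1 library (that is, on removal of controls 1 or 3 or knockouts 1, 2 or 4, with adjusted p up to 0.118). Cyp46a1, known as the cholesterol hydroxylase of brain, had 0.22, 0.75, 0.70 and 0.49 CPM in controls and 1.40, 0.87, 1.27 and 1.07 CPM in knockouts, from 8 to 45 counts a library. The groups did not overlap, but the difference did not pass (log2FC of 1.09 ± 0.42 SE, adjusted p = 0.118 by edgeR). Cyp39a1 had a log2FC of 0.54 ± 0.23 SE (adjusted p = 0.149 by edgeR).

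The vitamin and unassigned members did not pass. Cyp26a1 and Cyp26b1, which break down retinoic acid, had log2FCs of 0.22 (SE 0.49) and 0.43 (SE 0.65). Cyp26b1 varied most of all members within the controls (CV 113%), from 0.51 to 6.09 CPM with control 4 highest. Cyp2r1, a vitamin D hydroxylase, had -0.75 (SE 0.35, edgeR adjusted p = 0.180), and Cyp20a1, whose substrate is not settled, -0.36 (SE 0.12, adjusted p = 0.0793). Both had groups that did not overlap.

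**Figure D3:**
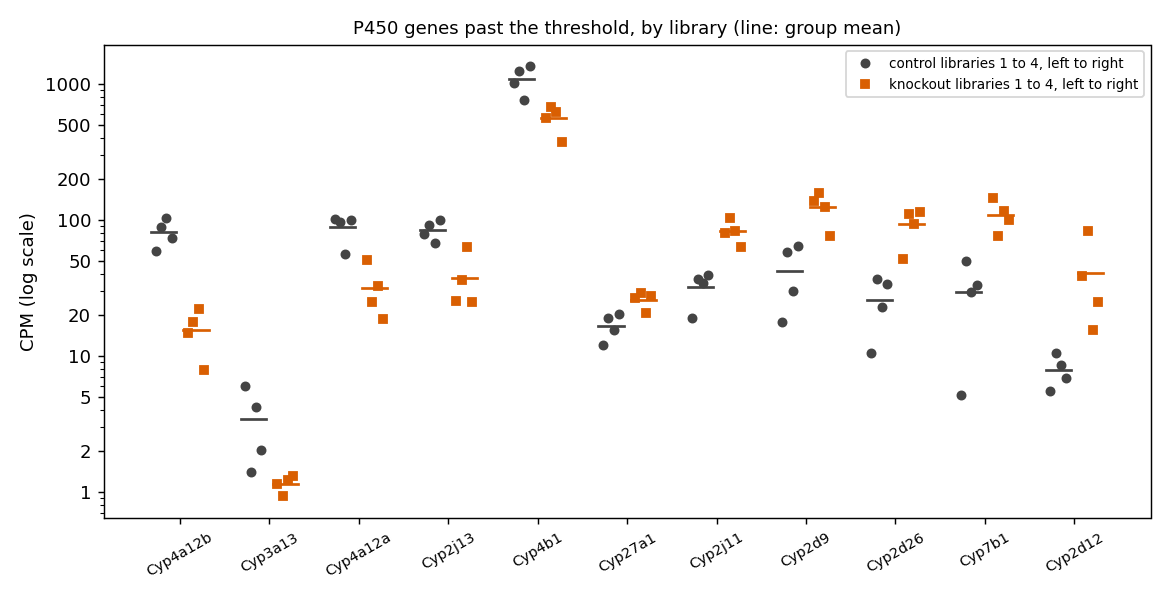
Level in CPM (log scale) of the 11 members past the threshold in each control library (circles) and knockout library (squares), with group means as lines. The groups do not overlap for any of the 11; the narrowest gaps are those of Cyp27a1 (20.3 against 20.8 CPM), Cyp2j13 (67.0 against 63.5 CPM) and Cyp3a13 (1.41 against 1.30 CPM).

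Between members, levels were compared per kilobase of the deposited gene length. Cyp4b1 led in controls with 569 ± 137 CPM per kilobase, followed by Cyp4a10 (248 ± 112), Cyp2a5 (228 ± 142), Cyp2a4 (218 ± 102), Cyp2e1 (207 ± 69.7) and Cyp4a14 (163 ± 118; SD, n = 4 each). The 5 that follow Cyp4b1 lay within each other's spread. In knockouts Cyp4a14 (360 ± 261 CPM per kilobase) and Cyp4a10 (355 ± 127) stood above Cyp4b1 (290 ± 67.1), all within their spread. These 6 genes made up 56.1% to 77.6% of the level per kilobase of all members in a library. The members' CPM summed to 2861, 5370, 4367 and 5622 in controls and 4502, 6929, 4996 and 3309 in knockouts, so the groups overlapped widely in total P450 RNA.

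**Figure D4:**
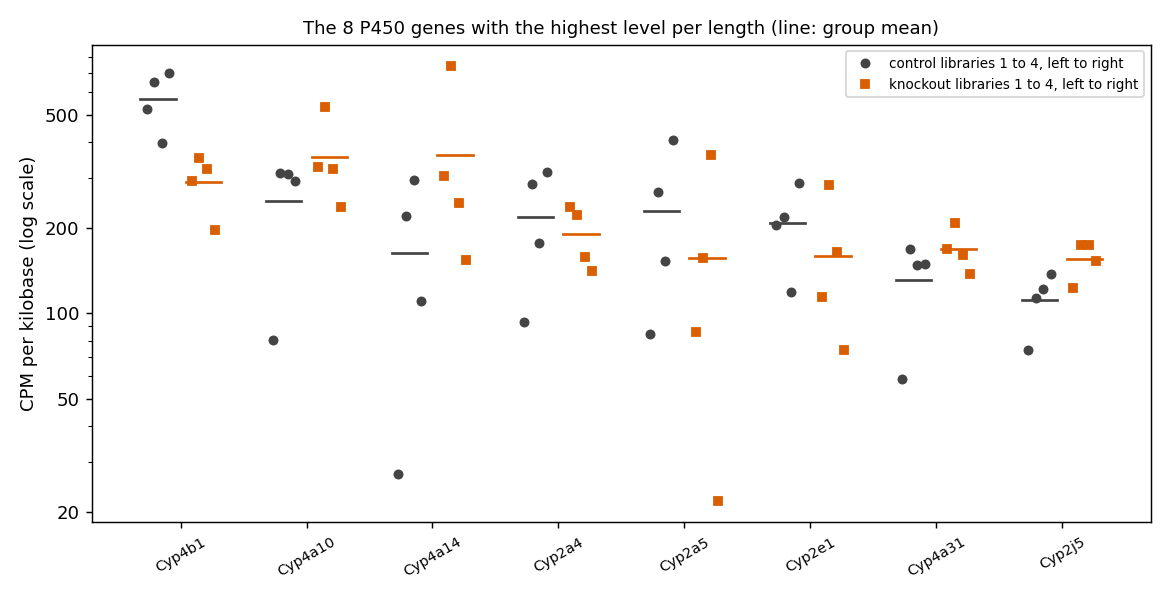
Level in CPM per kilobase (log scale) of the 8 members with the highest mean, in each control library (circles) and knockout library (squares), with group means as lines. Only Cyp4b1 has groups that do not overlap; control 1 is the lowest control for Cyp4a10, Cyp4a14, Cyp2a4, Cyp2a5, Cyp4a31 and Cyp2j5.

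Single libraries stood out across members. Control 1 was the lowest control for 25 of the 43 members, against 3, 8 and 7 for controls 2, 3 and 4, and knockout 4 was the lowest knockout for 20. The share over all genes was not counted, so these counts do not tell a P450 pattern from one of all genes. Of 17 markers of the proximal tubule, the segment where most renal P450 genes are expressed, 4 rose (Lrp2, Slc7a13, Aqp1 and Miox), 0 fell and 13 did not pass. Their summed level was 13299 to 29091 CPM in controls and 28015 to 38214 CPM in knockouts, none was at 0, and control 1 was the lowest control for 16. Of 10 injured tubule markers 0 rose and 9 fell, with sums of 15710 to 30336 and 6179 to 6998 CPM. Of 10 immediate early genes 0 rose and 8 fell, with sums of 491 to 723 and 281 to 328 CPM. Their part in the changes of P450 genes was not tested. In whole tissue, fewer cells of a type and less RNA per cell cannot be told apart. Without control 1, the log2FCs of the members that rose were 2.22 for Cyp2d12, 1.58 for Cyp2d26, 1.54 for Cyp7b1, 1.29 for Cyp2d9, 1.17 for Cyp2j11 and 0.51 for Cyp27a1, and all but Cyp27a1 (adjusted p = 0.0675) kept their call. Macrophage markers had 0 of 10 risen and 1 fallen, and neutrophil markers 0 of 7 risen and 6 fallen.

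Genes known to differ between the sexes in mouse kidney were listed because several P450 members do. The members named above as higher in males went both ways, with Cyp4a12a lower (log2FC -1.48) and Cyp7b1 higher (1.89) in the knockout. Cyp2d9, known from male liver, was higher (1.54). Of 6 other genes higher in males, 0 rose and 2 fell: Timd2 (log2FC -1.37, SE 0.17) and Gusb (-0.46, SE 0.12). Kap, the androgen-regulated kidney protein gene, which is also among the proximal tubule markers, had a log2FC of 0.59 ± 0.28 SE (adjusted p = 0.191 by edgeR). All 3 genes higher in females rose: Slc7a12, an amino acid transporter family gene, from 0 to 1.71 CPM in controls to 34.2 to 39.6 CPM in knockouts, Akr1c18, a steroid reductase, from 0.73 to 16.8 to 73.0 to 331 CPM, and the prolactin receptor gene Prlr with a log2FC of 2.13 (SE 0.40). The rise of Slc7a12 and Akr1c18 was known when that list was made.

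Partners of P450 enzymes were counted by list, beside the 12.7% of all genes that were called. Of 10 electron transfer genes tested 1 rose and 0 fell: Cyb5b, the cytochrome b5 of the outer mitochondrial membrane, had 304 to 452 CPM in controls and 508 to 544 CPM in knockouts (log2FC of 0.47 ± 0.14 SE, adjusted p = 0.0468 by edgeR). Por, the electron donor of microsomal P450 enzymes, had 191 to 285 CPM in controls and 283 to 335 CPM in knockouts and did not pass (log2FC of 0.42 ± 0.14 SE, adjusted p = 0.0713 by edgeR). Fdx1 had a log2FC of 0.04. In heme synthesis 0 of 8 rose and 1 fell, Cpox, an enzyme late in the pathway (log2FC -0.59, SE 0.16). Alas1, the first enzyme, had 255 to 483 CPM in controls and 162 to 446 CPM in knockouts (log2FC of -0.67 ± 0.33 SE, adjusted p = 0.207 by edgeR). Of 4 genes of heme breakdown 2 fell: the heme oxygenase gene Hmox1 (log2FC -2.27) and the biliverdin reductase gene Blvrb (-1.12, SE 0.21).

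Transcription factors that control P450 genes were compared next, and 1 of 12 tested rose and 0 fell. Nr0b2, which encodes the repressor SHP, stood at 0.28, 2.25, 1.38 and 0.84 CPM in controls and 6.84, 5.50, 4.00 and 4.27 CPM in knockouts. All knockouts lay above the controls (log2FC of 2.12 ± 0.50 SE, adjusted p = 0.0237 by edgeR). Ppara and Ahr themselves had log2FCs of 0.09 (SE 0.17) and -0.22 (SE 0.31). Of 14 PPARA target genes outside the P450 family 0 rose and 3 fell, Pdk4 (log2FC -2.11, SE 0.33), Angptl4 (-1.29, SE 0.26) and Acot2 (-0.70, SE 0.15), with a median of 0.07. Of 6 AHR target genes 0 rose and 1 fell, the glutathione transferase gene Gsta1 (-1.72, SE 0.40), and the median was -0.23.

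In retinoic acid synthesis and signalling 1 of 12 tested genes rose and 2 fell. Dhrs3, which turns retinal back into retinol, had a log2FC of 1.32 ± 0.34 SE (adjusted p = 0.0337 by edgeR), and the retinol dehydrogenase genes Rdh10 and Rdh11 had -0.94 (SE 0.14) and -0.72 (SE 0.17). None of the 3 epoxide hydrolase genes tested passed, with Ephx2, which breaks down arachidonic acid epoxides, at -0.02 (SE 0.26). Ptgis and Tbxas1, P450 enzymes named outside the Cyp series, had log2FCs of 1.03 (SE 0.32, adjusted p = 0.060) and 0.40.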

How the data were processed

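The authors deposited 1 table of raw counts per gene with a column per library and a gene length, per the file headers. Tools listed in the submitters' processing notes are HISAT2 2.2.1, Salmon 1.10.2, FastQC and Trim Galore 0.6.2, with mm39 as build. Which tool counted, and with which annotation, is not given in the sources used here. Even numbers made up 68.7% to 70.9% of the low values (1 to 20) in a library and 49.5% to 50.4% of those over 100, so a fragment may count more than once. The library kit, per the labels, is one without strand marking. Genes were taken by symbol.

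Counts were tested with edgeR 4.0.16 in R 4.3.3 (filterByExpr, minimum count 10; TMM; glmQLFit, glmQLFTest; Benjamini-Hochberg), with DESeq2 1.42.0 as an alternative. CPM used library totals with TMM factors. SE derive from the F statistic. Precision from depth covers counting error only. On simulated counts of 14848 genes, the test recovered 70.0% of 2-fold and 100% of 4-fold changes, with 5.03% false among its calls. Each size of change was planted in 100 genes, drawn only from those above a minimum mean count. The recovery therefore does not cover low members such as Cyp3a13, Cyp1a1, Cyp46a1 and Cyp4f14.

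Members and lists were chosen with earlier results of these data known. Full values were given for members that passed, the 6 highest per kilobase, and members that missed with an absolute log2 fold change of at least 1. Of partner lists (not marker lists), up to 4 called genes by smallest p were named, with Por, Alas1, Ppara and Ahr; Foxo1, Fdx1, Ephx2, Kap, Tbxas1, Ptgis and marker genes given with values were added after their values were seen. A symbol that 2 role patterns took (Cyp46a1) went to the later one. Shared words are exact 50-base stretches of the longest GENCODE M21 transcript. Motifs were chosen after the values had been seen.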

Additional observations from a re-analysis of the deposited data

Results flagged for a closer look

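In 2 of 86 groups of 4 libraries, 1 library lay far from the others, where chance gives about 1 in 20 groups. Cyp4a10 stood at 167 CPM in control 1, against 608 to 649 CPM in the other controls. Cyp4a12a stood at 56.3 CPM in control 3, against 96.0 to 101.7 CPM in the other controls. Its near copy Cyp4a12b was highest in that same control, at 102.6 CPM. The pair summed to 159 CPM there, against 161 to 184 CPM in the other controls. The part of the split of reads between them was not tested.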

How the results depend on the processing

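Over the 17 alternatives, Cyp4a12a, Cyp4a12b, Cyp2d12, Cyp2d26 and Cyp2j11 passed in every one, and no value of the 16 members that passed or had an absolute log2 fold change of at least 1 changed sign. The 6 risen and 5 fallen members were called in equal numbers with DESeq2 size factors or upper quartile factors in edgeR. Equal numbers also came with no filter, with a CPM filter, with length and GC trends removed and with counts halved. Halving divided each count by 2 and drew no new sample of reads, so it could not test the effect of depth. DESeq2 called 9 and 6. By replicate number the libraries showed no pairing: deviations of same-numbered libraries correlated at -0.198 to 0.153, and 0 of 4 controls correlated best with the knockout of their number. The column names number the knockouts otherwise. By those names control 2 goes with knockout 1 (0.347) and control 3 with knockout 2 (0.167), each the highest value of its control. Controls 1 and 4 have no knockout of their number there. A pairing by column name was not fitted. With the replicate number as a block, 3 members rose and 2 fell (11.9%, where 5.77% of all genes were called), and 447 and 418 of all genes. Without 1 library, 3 to 6 members rose and 2 to 5 fell, and 457 to 1001 and 450 to 983 of all genes, against 967 and 942. Without control 1 and knockout 3 together, an alternative chosen after seeing the data, 549 and 496 genes were called, with 6 and 4 members. DESeq2 called 1605 and 1504 of all genes, and with length and GC trends removed 1680 fell and 39.5% of calls were higher, against 50.7%; the cause was not tested. Cyp1a1, Cyp46a1 and Cyp3a13 had under 50 counts in some libraries (SE 0.42 to 0.45). With counts halved and 14147 genes tested, their adjusted p by edgeR were 0.069, 0.0948 and 0.0438. With all counts and 15000 genes tested they were 0.0822, 0.118 and 0.0433. Their CVs were 44.4% to 61.2% in controls and 14% to 32.1% in knockouts. Cyp2a5 (SE 0.71) and Cyp4a14 (SE 0.65) had over 1000 counts in each library. Their CVs were wider than those of Cyp1a1, Cyp46a1 and Cyp3a13, at 62.3% and 72.3% in controls and 94.2% and 72.4% in knockouts. Other tested members also had under 50 counts in some libraries. Of these, Cyp4f15 (SE 0.66), Cyp26b1 (0.65), Cyp4f14 (0.52) and Cyp26a1 (0.49) had larger SE, and Cyp2b9 (0.41) and Cyp2r1 (0.35) smaller. The CV reached 113% in controls for Cyp26b1 and 89% in knockouts for Cyp4f15. The parts of depth and of spread between libraries in these SE were not tested.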
